A study of Homo sapiens with 6 samples.

Results

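The zinc finger cluster of chromosome band 19p12 is a run of tandemly repeated genes beside the centromere of chromosome 19, and 34 of its genes, from ZNF101 to ZNF254 (chr19:19668796-24129961, build hg38), were followed here. They were taken by position, with ZNF101 and ZNF14 at the telomeric edge of the band, from the 56794 genes named in the table, and the cluster had been singled out because its levels differed between the same 2 groups. Those differences are therefore given as a description. All 34 genes were found, with 215 of the 203376 transcripts. The samples were HEK293 cells, a human embryonic kidney line, carrying a luciferase reporter: 3 libraries from the parental line (genotype Parent) and 3 from the line in which CASP8AP2 was deleted with CRISPR (genotype CASP8AP2 Mutant). Both groups carried the reporter and were grown with 10% serum. CASP8AP2, also called FLASH, acts in the 3' end processing of histone messages. Whether the mutant line was 1 clone, and whether replicates were separate cultures, is not stated in the labels, so the deposited p-values measure only the spread between these samples, which may be technical.

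The genes encode KRAB zinc finger proteins. An array of C2H2 fingers reads DNA, and the KRAB domain at the other end binds TRIM28, which brings the histone methyltransferase SETDB1 and HP1 proteins to the site and leads to repressive H3K9 methylation. Many such proteins bind transposable elements: ZNF91 represses SVA elements and ZNF93 represses L1 elements in human cells. The family grew by repeated duplication in primates, which is why the members of this band resemble each other in their coding exons and in their promoters.

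Levels are group means of a length-scaled abundance, with the authors' added 1 taken off and summed over the transcripts of a gene. A log2 ratio sets mutant against parental with 1 added to each level, which understates the change of genes at low levels. The table gives means only, but the value of 1 read in each library could be read from it, which gave estimates of 57500000, 15000000 and 13300000 reads for the mutant libraries. The parental estimates were 15300000, 11600000 and 9190000 reads, so the mutant group was the more deeply sequenced one. CASP8AP2 RNA, at 15.7 against 15.9 (mutant first, as in all pairs of values below), does not check the deletion. Of 8 genes typical of HEK293 cells 7 reached 1 in either group. Their sum was 983 in the mutant and 496 in the parental group, with NEFL at 434 against 35.7, VIM at 530 against 425, and the alpha-internexin gene INA at 0 against 6.11. Of 8 markers of other cell types only COL1A1 and EPCAM reached 1, and the sum was 7.27 against 4.35, with CD3E and COL1A2 at 0 in both groups. Their part in the results was not tested. In bulk RNA, fewer cells that express a gene and less RNA per cell cannot be told apart.

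The promoters are shown first, because most members share a run of letters in them, on both sides of the result. RefSeq windows on GRCh38.p14, from 250 bases before to 50 bases after the gene start, were found for 27 of the 34 members, and ZNF682 had 2 windows. No window was matched for ZNF253, ZNF506, ZNF676, ZNF729, ZNF738, ZNF98 and ZNF99. The windows of ZNF254, ZNF43, ZNF429 and ZNF730 lay far inside the gene as annotated for the transcripts. For ZNF254 the annotated gene begins at 24033405 and the window at 24086937. Which start gave the measured RNA is not known. The 250 bases before the start are printed 5′ to 3′ in the direction of the gene for 8 members. Of these, 3 were expressed in both groups (ZNF430, ZNF714 and ZNF431, neighbours on the chromosome, called kept below). The other 5 were near 0 in the mutant group only (ZNF85, ZNF708, ZNF100, ZNF675 and ZNF726). Capitals mark the run TCCAATCAGG, which holds a CCAAT box. The stretches are ZNF430 chr19:21020407-21020656 (plus strand), ZNF714 chr19:21081953-21082202 (plus strand), ZNF431 chr19:21141790-21142039 (plus strand), ZNF85 chr19:20923001-20923250 (plus strand), ZNF708 chr19:21329411-21329660 (minus strand), ZNF100 chr19:21767580-21767829 (minus strand), ZNF675 chr19:23687213-23687462 (minus strand) and ZNF726 chr19:23914636-23914885 (plus strand).
ZNF430: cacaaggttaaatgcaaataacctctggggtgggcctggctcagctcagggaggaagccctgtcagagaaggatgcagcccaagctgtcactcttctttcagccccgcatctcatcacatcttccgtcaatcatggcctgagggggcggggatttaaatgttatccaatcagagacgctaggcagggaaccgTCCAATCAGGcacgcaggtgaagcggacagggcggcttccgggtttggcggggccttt
ZNF714: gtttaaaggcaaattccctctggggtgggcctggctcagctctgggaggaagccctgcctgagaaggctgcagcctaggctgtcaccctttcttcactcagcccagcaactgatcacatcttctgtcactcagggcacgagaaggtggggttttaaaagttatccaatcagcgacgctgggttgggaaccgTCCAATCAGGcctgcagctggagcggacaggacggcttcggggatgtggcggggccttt
ZNF431: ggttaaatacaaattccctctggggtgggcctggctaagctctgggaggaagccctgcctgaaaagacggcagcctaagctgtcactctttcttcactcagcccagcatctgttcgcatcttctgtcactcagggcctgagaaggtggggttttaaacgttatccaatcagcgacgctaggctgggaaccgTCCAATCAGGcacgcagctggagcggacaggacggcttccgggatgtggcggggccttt
ZNF85: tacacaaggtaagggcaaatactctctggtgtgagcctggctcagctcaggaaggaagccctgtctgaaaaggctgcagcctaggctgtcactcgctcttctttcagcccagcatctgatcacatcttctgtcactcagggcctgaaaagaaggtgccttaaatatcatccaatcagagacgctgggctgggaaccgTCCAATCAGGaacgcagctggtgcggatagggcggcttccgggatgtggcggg
ZNF708: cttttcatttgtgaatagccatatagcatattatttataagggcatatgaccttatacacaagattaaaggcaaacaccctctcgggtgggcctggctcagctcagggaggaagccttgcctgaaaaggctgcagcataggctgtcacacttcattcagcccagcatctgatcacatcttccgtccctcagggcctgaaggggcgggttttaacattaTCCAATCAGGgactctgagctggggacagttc
ZNF100: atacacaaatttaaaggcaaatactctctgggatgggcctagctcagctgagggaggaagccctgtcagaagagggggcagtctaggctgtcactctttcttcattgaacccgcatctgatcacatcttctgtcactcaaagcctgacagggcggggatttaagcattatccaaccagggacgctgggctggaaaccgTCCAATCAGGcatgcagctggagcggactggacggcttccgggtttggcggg
ZNF675: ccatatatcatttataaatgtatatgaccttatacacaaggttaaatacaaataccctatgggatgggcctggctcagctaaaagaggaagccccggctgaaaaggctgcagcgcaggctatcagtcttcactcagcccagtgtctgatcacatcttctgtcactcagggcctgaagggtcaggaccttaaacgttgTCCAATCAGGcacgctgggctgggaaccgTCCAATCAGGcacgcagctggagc
ZNF726: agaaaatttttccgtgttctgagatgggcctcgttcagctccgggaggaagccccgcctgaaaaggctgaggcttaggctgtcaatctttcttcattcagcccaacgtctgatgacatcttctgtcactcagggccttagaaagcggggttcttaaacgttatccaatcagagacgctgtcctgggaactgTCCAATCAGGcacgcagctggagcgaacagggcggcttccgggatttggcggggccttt

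TCCAATCAGG was the 10-base run shared by the most members. It was picked from these windows and stood in those of 25 of 27 members (92.6%), against 122 of 35116 windows of all genes (0.347%), with both strands searched. In the members it always lay in the direction of the gene. In 6 members (ZNF208, ZNF43, ZNF626, ZNF675, ZNF737 and ZNF93) there were 2 copies. The first copy began 53 bases before the gene start in ZNF85, 58 in ZNF430, 59 in ZNF714, ZNF431 and ZNF726, and over all members and copies the run began between 24 and 88 bases before the start. The shorter CCAAT on either strand was in the windows of all 27 members and in 34.6% of all windows. The kept ZNF714 and ZNF431 were the closest pair, with 91.0% identical bases over the window. ZNF85, near 0 in the mutant libraries, was 81.1% identical to ZNF430, 81.4% to ZNF431 and 80.7% to ZNF714. ZNF100, also near silent, was 80.4%, 79.5% and 79.5% identical to ZNF430, ZNF431 and ZNF714. Values were lower for ZNF675 (65.7%, 65.9% and 64.7%) and ZNF708 (57.4%, 55.5% and 56.1%). The copy nearest the start began 24 bases before it in ZNF675, against 58 in ZNF430. In ZNF708 the run began 32 bases before the start. Its flanking letters there resemble those of the unmarked tccaatcag in ZNF430, which lies farther from the start than the marked run. Their windows may thus be offset, which lowers identity over the whole window, so these values do not show less alike promoters. ZNF101 and ZNF14 were 53.3% and 47.8% identical to ZNF430. The run was thus present in kept and near-silent members alike, and its letters in a window show no binding.

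In the mutant libraries most of the expressed part of the cluster was at or near 0, while 3 adjacent genes in its middle stood at 79.9% to 123% of their parental level. Summed over the 34 members, abundance was 30.4 in the mutant and 68.1 in the parental group. ZNF430, ZNF714 and ZNF431 together held 23.1 of the first sum and 24.6 of the second, which is 76.2% and 36.1%. In the parental group 17 members reached 1, and in the mutant group 6 of these did. Of the 17, 16 were lower in the mutant group and 1 higher, beside 50.6% lower and 49.4% higher among the 14856 genes at 1 or more in either group. As 11 of the 17 reached 1 through the parental group alone, they had to be lower, so this count shows how the cluster looked and supports nothing further. The median log2 ratio was -1.34 over these 17 genes and -0.37 over all 34, against -0.01 over all measured genes. Of all 34 members 30 were lower in the mutant group, 1 was higher, and 3 were at 0 in both (ZNF729, ZNF99 and ZNF730).

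**Figure D1:**
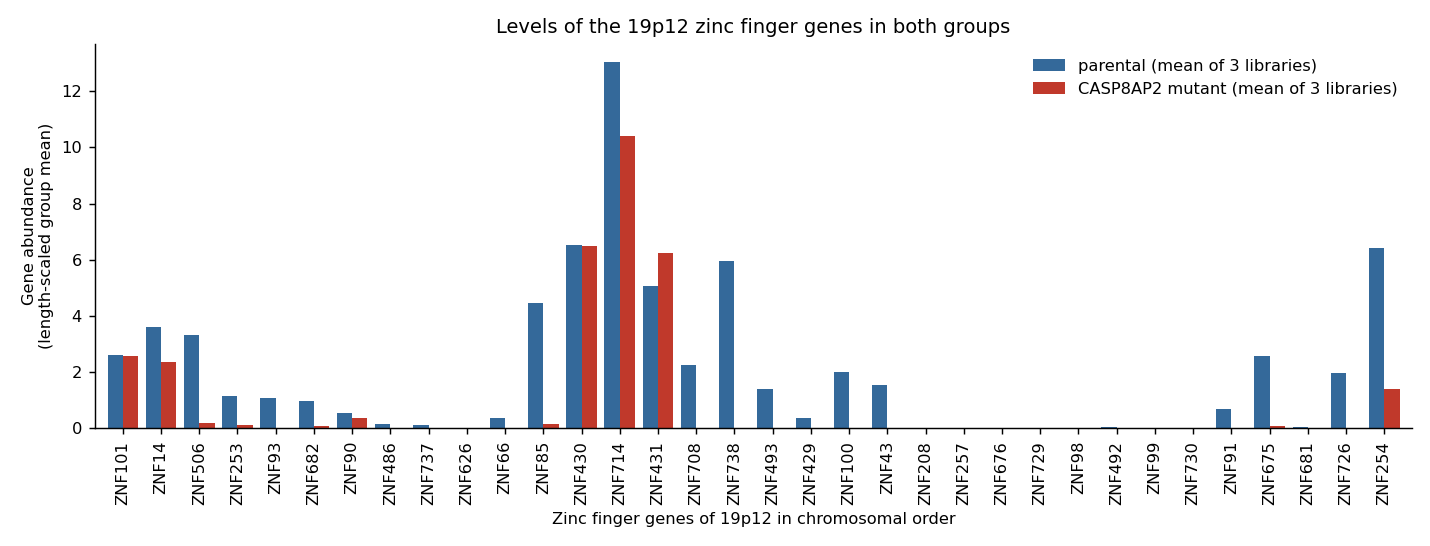
Group mean abundance (linear axis from 0) of the 34 zinc finger genes in chromosomal order, in the parental and the CASP8AP2 mutant libraries; the table gives no error for a group mean. ZNF430, ZNF714 and ZNF431 have bars of like height in both groups, and the expressed genes on either side of them have tall bars in the parental group only, apart from ZNF101 and ZNF14 at one edge and ZNF254 at the other.

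Near silence was counted where a gene reached 1 in the parental group and was under 10% of that in the mutant group. This held for 10 members: ZNF506, ZNF93, ZNF85, ZNF708, ZNF738, ZNF493, ZNF100, ZNF43, ZNF675 and ZNF726. Of all 14268 genes at 1 or more in the parental group, 84 (0.589%) were near silent in the mutant one. The cluster was singled out on these levels, so its count beside this share is a description only. In the other direction there was no member, beside 13 of 14275 genes (0.0911%). The member just inside the limit was ZNF506, at 5.20% of its parental level, and the one just outside was ZNF253, at 10.9%. By level, ZNF93 (1.06 in the parental group) lay just inside the limit of 1 and ZNF682 (0.977) just outside.

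ZNF738 had the largest difference of the cluster. This gene codes for a short protein with a KRAB domain and none of the fingers of its neighbours. It was at 0 in the mutant group and at 5.95 in the parental group. No mutant library held a read of it, where the parental level would have given 1073 reads, 719 of them in the deepest library. Taking 3 reads over the group as the limit that 0 reads allow, each worth as much as in the shallowest mutant library, it was at least 166-fold lower. This limit and the others of its kind cover counting error in the mutant libraries only, and they take the parental mean as exact. ZNF738-201 (0 against 2.66) and ZNF738-204 (0 against 0.819) led the member transcripts, with p = 0.000122 and 0.000423 in the authors' deposited table. ZNF738-202 (0 against 2.32) followed with p = 0.00639 in the authors' deposited table. For ZNF738-201 the spread behind that value could be worked back. The 3 parental libraries lay at about 1.86 ± 0.22 on the scale of log2 of abundance plus 1 (SD, n = 3), and all 3 mutant libraries at 0.

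ZNF100 and ZNF43, farther towards the centromere, were also at 0 in the mutant group. ZNF100 was at 1.99 in the parental group, which makes it at least 144-fold lower, with 0 reads where 926 would have been expected at the parental level. For its main transcript ZNF100-202 the authors' deposited table gives p = 0.0262. The parental libraries of that transcript spread widely, at about 1.11 ± 0.56 on the same log2 scale (SD, n = 3). ZNF43 was at 1.53 in the parental group and at least 114-fold lower, with 0 reads against 738. For ZNF43-202 (0 against 0.990) the authors' deposited table gives p = 0.0140.

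Few mutant reads were found for 4 other near-silent members. ZNF726 had 1 read in the deepest mutant library and none in the others, where its parental level of 1.95 would have given 318 reads. ZNF708 (0.0101 against 2.26) had 2 reads, both in the deepest mutant library, where 855 were expected over the group. ZNF493 (0.00586 against 1.39) had 4 reads in that library, where 485 were expected over the group. ZNF675, whose protein holds back TRAF6 signalling, had 5 reads in the deepest mutant library and 1 in the next, with 611 expected at the parental level of 2.56. In these 4 genes no mutant library held more than 5 reads. ZNF675-201, which carried 88.9% of the parental level of its gene, stood at 0.00204 against 2.27 (p = 0.00281 in the authors' deposited table), and ZNF675-206 at 0 against 0.0960 (p = 0.00519 in the same authors' deposited table). For ZNF726-204 (0.00261 against 0.887) and ZNF726-205 (0 against 0.344) the authors' deposited table lists 0.000924 and 0.00275 as p. The main transcript ZNF493-203 (3.64e-06 against 0.419) is listed with p = 0.119 in the authors' deposited table. Smaller values were held by ZNF493-204 (0 against 0.204), ZNF493-201 (0 against 0.242) and ZNF493-202 (0.00320 against 0.362). The authors' deposited table lists these 3 with p-values of 0.00230, 0.00300 and 0.00406. ZNF708-201 (0 against 1.90) is listed with p = 0.0372 in the authors' deposited table.

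ZNF85, ZNF506 and ZNF93 lie on the telomeric side of the kept genes. ZNF85 was at 0.143 against 4.46 (log2 ratio -2.26), and 3 of its transcripts had p under 0.05, the smallest being 0.00104 for ZNF85-201 (0.0297 against 0.877) in the authors' deposited table. ZNF506, which takes part in the H2AX response to DNA breaks, was at 0.173 against 3.32, and ZNF506-204 (0.0259 against 0.666) is listed with p = 0.000458 in the authors' deposited table. An antisense pseudogene, AC011477.1, overlaps ZNF506 on the other strand (0.50 against 0.892), and reads of the pair may not be told apart. ZNF93, the L1 repressor gene, was at 0.00764 against 1.06, or 0.720% of the parental level. The authors' deposited table gives its main transcript ZNF93-201 p = 0.0596. ZNF253, beside it, was at 0.122 against 1.12, with ZNF253-203 (0.00267 against 0.663) with p = 0.0104 in the authors' deposited table.

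ZNF430, ZNF714 and ZNF431 are 3 neighbours on the plus strand, between ZNF85 and ZNF708. ZNF430 (chr19:21020620-21060050) was at 6.48 against 6.51, a log2 ratio of -0.01. ZNF714 (chr19:21082159-21125270), the most abundant member, was at 10.4 against 13.0 (log2 ratio -0.30). ZNF431 (chr19:21142024-21196053) was at 6.24 against 5.05 (log2 ratio 0.26), the single member on the higher side. Their main transcripts ZNF430-201, ZNF714-202 and ZNF431-201 are listed with p = 0.899, 0.591 and 0.248 in the authors' deposited table. For ZNF714-204, which carried 9.58% of the parental level of its gene, the reads of each library could be recovered. From deep to shallow, the mutant libraries had levels of 0.862, 0.660 and 0.610, and the parental libraries 0.412, 2.26 and 1.08. The groups overlap in this transcript, and the parental libraries, with 7, 29 and 11 reads of it, are the more scattered ones. The reads of the main transcripts of these 3 genes were not recovered, so their spread is not known from this. A p that misses the threshold does not show that the levels of these 3 genes were equal.

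**Figure D2:**
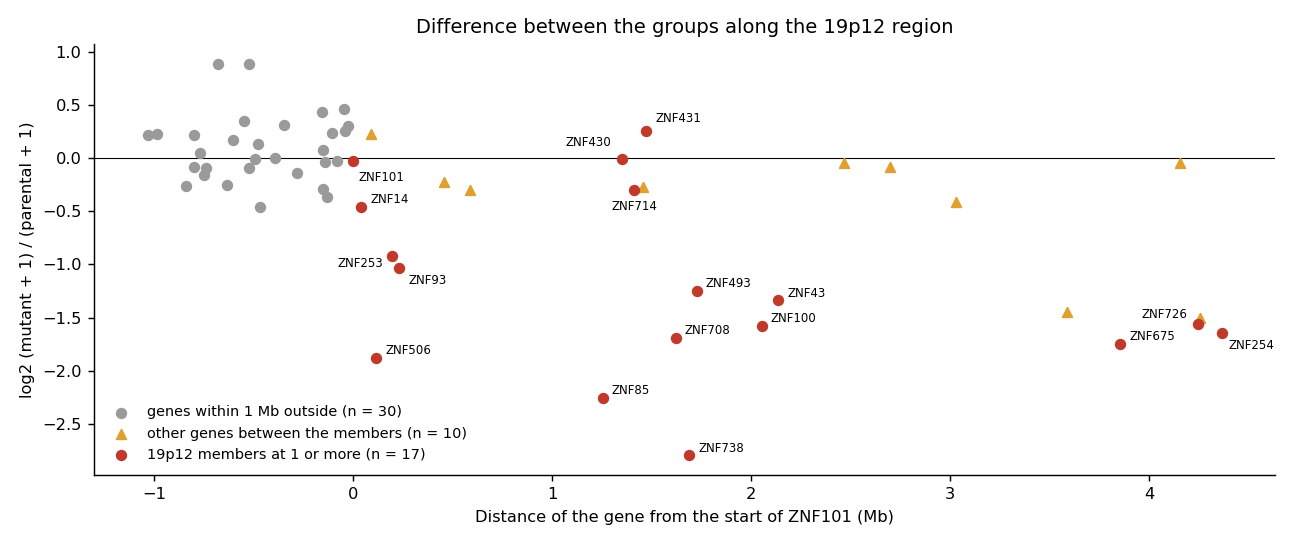
Log2 ratio of mutant over parental against distance from the start of ZNF101, for the 17 members at 1 or more in either group (red), 10 other genes between them (orange triangles) and 30 genes within 1 Mb outside (grey). The kept genes ZNF430, ZNF714 and ZNF431 lie between -0.30 and 0.26, flanked by ZNF85 (-2.26) and ZNF708 (-1.69), and the grey genes lie around 0 up to the edge of the cluster.

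At the telomeric edge ZNF101 and ZNF14 kept most of their RNA. ZNF101 (chr19:19668796-19683509) was at 2.55 against 2.61, a log2 ratio of -0.02. ZNF14 has a single transcript, and no stretch of 50 bases in it occurs in another gene, so its reads could be recovered for each library. The mutant libraries held 549, 123 and 105 reads, from deep to shallow, and the parental ones 292, 112 and 96. As abundance this was 2.62, 2.25 and 2.17 for the mutant group and 5.24, 2.65 and 2.87 for the parental group. The deepest parental library stood high, and the other 2 lay just above the mutant range, so the groups did not overlap. The group means were 2.34 and 3.59, and the p of ZNF14-201 was 0.175 in the authors' deposited table.

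At the centromeric end ZNF254 was the member that stayed partly on. It was at 1.37 against 6.41, or 21.4% of the parental level. ZNF254-202 stood at 0.909 against 3.36 with p = 0.0410, and ZNF254-207 at 0.0851 against 0.694 with p = 0.00789 in the authors' deposited table. A long non-coding RNA, AC092279.1, overlaps it on the same strand from near its annotated start, which lies upstream of the promoter window. AC092279.1 shares 2.89% of the 50-base stretches of ZNF254. It was at 0.0719 against 0.315.

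The other 17 members were under 1 in both groups. ZNF682 came closest, at 0.0589 against 0.977, with 3 reads in 1 mutant library and 283 expected. ZNF91, the SVA repressor gene, was at 0.00568 against 0.669. It had 1 read, in the shallowest mutant library, where 184 were expected over the group, and ZNF91-204 (0 against 0.273) is listed with p = 0.0190 in the authors' deposited table. ZNF66 (0 against 0.369) had 14, 1 and 7 reads in the parental libraries, from deep to shallow, and was at least 7.82-fold lower in the mutant group, where 50 reads were expected and none was seen. ZNF429 (0 against 0.359), with 17 to 28 parental reads, was at least 8.21-fold lower. Both limits take the parental mean as exact, though it rests on few reads. ZNF681 had 10, 2 and 3 reads in the parental libraries and none in the mutant ones, with 33 expected, and ZNF737 had 3 reads in the deepest and 3 in the shallowest parental library and none in the mutant ones. ZNF90 was an exception among these low members, at 0.363 against 0.548. A processed pseudogene, AC011447.1, lies within ZNF90 on the same strand, stood at 114 against 133 and shares 7.79% of the 50-base stretches of ZNF90, so the level of ZNF90 is uncertain. ZNF486 (0.00489 against 0.138) had 4 reads in the deepest mutant library. The block from ZNF208 to ZNF730 (ZNF208, ZNF257, ZNF676, ZNF729, ZNF98, ZNF492, ZNF99 and ZNF730) was at 0.0318 or less in both groups. ZNF492 (0 against 0.0318) rested on 5 to 8 parental reads, with 14 reads expected in the mutant libraries and none seen. The authors' deposited table gives ZNF492-201 p = 0.283. The limit of 2.22-fold for ZNF492 takes the parental mean as exact, so a difference is uncertain. In the other 7 genes of the block and in ZNF626 (0 against 0.00801, 2 parental reads) no difference was detectable at this depth. ZNF98 and ZNF492 share 37.6% of the 50-base stretches of ZNF98 with each other.

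No member transcript passed the authors' threshold. The authors' deposited table holds p-values for 151 member transcripts, and 0 of these have an adjusted value under 0.05. Of all 140552 tested transcripts 0.0221% were called, 0.00854% as lower and 0.0135% as higher in the mutant group. The smallest adjusted p of a member was 0.182, held by ZNF738-201 in the authors' deposited table. At an unadjusted p under 0.05 there were 24 member transcripts on the lower side and 0 on the higher side in the authors' deposited table, beside 2.48% and 3.3% of all transcripts. At p under 0.01 there were 13 and 0 in the authors' deposited table, beside 0.779% and 0.97%. In all, 126 of the 151 were lower and 25 higher. The deposited p was found to be that of an equal-variance comparison of log values over the 6 libraries. Where the mutant libraries are all at 0, such a comparison gives 0.374 when a single parental library holds reads, and no less than 0.116 when 2 of them do. Of 77 member transcripts at 0 in the mutant group, taken as a mean under 1e-06, 17 from 11 genes were below 0.116 in the authors' deposited table, so that all 3 parental libraries held reads of them. The 11 genes were ZNF738, ZNF493, ZNF726, ZNF675, ZNF43, ZNF91, ZNF100, ZNF708, ZNF253, ZNF681 and ZNF66. The counts of 126, 25 and 17 have no share over all tested transcripts beside them. As the cluster was singled out on these levels, the counts of this paragraph are a description and support nothing further.

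**Figure D3:**
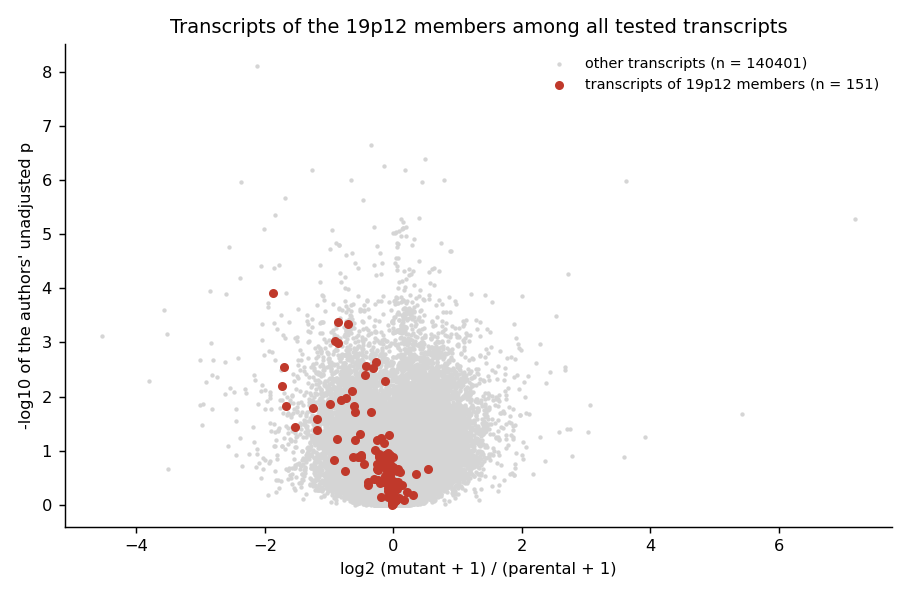
Each point is a transcript: log2 ratio of mutant over parental against -log10 of the authors' unadjusted p, with 151 transcripts of the members in red over all other tested transcripts in grey. The red points beyond an absolute log2 ratio of 1 lie on the lower side, with ZNF738-201 (p 0.000122) the highest of them, and grey points surround them.

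Reads that fit several copies can be counted for the wrong gene, and their part in these values was not tested. Of the 50-base stretches in the transcripts of a near-silent member, between 1.95% and 6.99% also occur in another gene. For ZNF430, ZNF714 and ZNF431 the shares were 3.31%, 4.09% and 5.64%. Gene sequence was poor in G and C for all, with 34.7% to 45.5% over the 17 measured members. Among 5265 other genes in that range the median log2 ratio was -0.13, 63.6% were lower in the mutant group and 30 were near silent. With the trend by GC content taken out the median of the members was -1.20, and 14 of the 17 were below 0.

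Of 30 genes at 1 or more that end within 1 Mb before ZNF101, 17 were higher and 13 lower in the mutant group, with a median log2 ratio of 0.07 and none near silent. ATP13A1, an endoplasmic reticulum ATPase gene and the nearest protein-coding neighbour, was at 34.7 against 27.8. No gene at 1 or more lay within 1 Mb beyond ZNF254. Between the members 171 other genes were listed, 3 of them zinc finger genes, and 10 reached 1. Of these 10, 9 were lower and 1 higher in the mutant group, with a median log2 ratio of -0.25. Most were processed pseudogenes, and 2 were near silent in the mutant group, the sense-intronic RNA AC011503.2 within ZNF726 (0.00313 against 1.84) and the pseudogene IPO5P1 near ZNF91 (0 against 1.73). The most abundant ones were RPSAP58, a ribosomal protein pseudogene (1029 against 1064), AC011447.1 (114 against 133), RPL34P33 (4.01 against 5.65), AC078899.1 (3.19 against 4.16), VN1R81P (2.75 against 3.51) and PCGF7P (3.15 against 3.28). Such copies share reads with their parent genes elsewhere in the genome, so their levels are uncertain. ZNF724, a zinc finger gene beside ZNF91 that is no member, was at 0.00601 against 0.552.

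Other zinc finger clusters of chromosome 19 were set beside this one, with genes grouped where starts lie less than 1 Mb apart. Of genes at 1 or more in the parental group, 10 of 17 (58.8%) were near silent in the mutant group at 19p12. The share was 8 of 22 (36.4%) from ZNF175 to ZNF331, 7 of 25 (28%) from ZNF565 to ZNF573 and 2 of 13 (15.4%) from ZNF653 to ZNF791, the 3 clusters most like it. It was 2 of 54 (3.70%) from ZNF628 to ZNF446 and 0 from ZNF557 to ZNF846 and from ZNF575 to ZNF296. On all other chromosomes it was 1 of 232 zinc finger genes (0.431%). The median log2 ratios of the first 4 clusters were -1.34, -1.17, -0.85 and -0.73. Of the 84 near-silent genes among all genes, 30 were zinc finger genes and 29 of these lay on chromosome 19. The differences between clusters were not tested, and all come from the same 6 libraries. As the cluster at 19p12 was singled out on these levels, its place above the others is a description and supports nothing further.

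**Figure D4:**
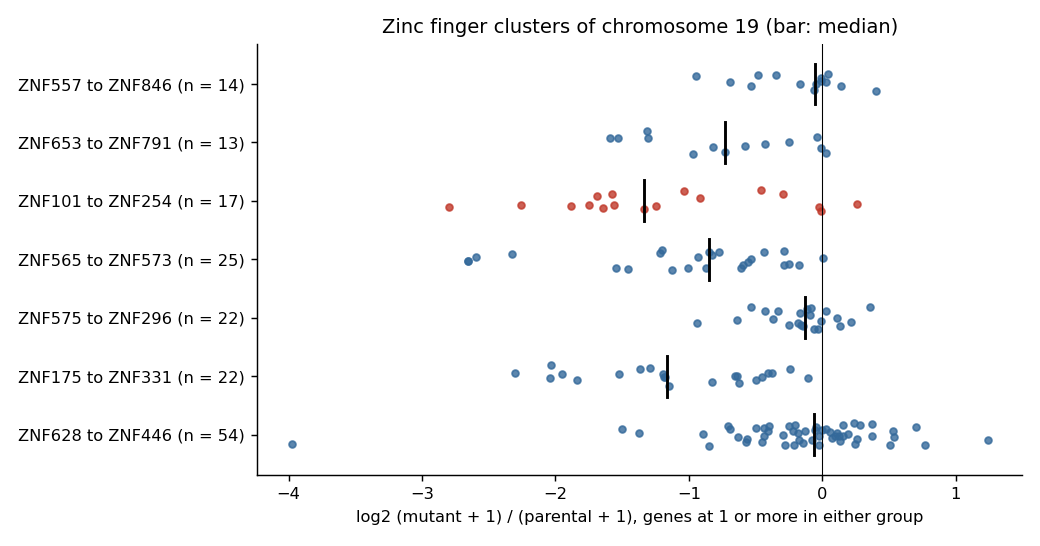
Log2 ratio of mutant over parental for zinc finger genes at 1 or more in either group, in the 7 clusters of chromosome 19 with at least 10 genes; each point is a gene and the black bar is the median. The cluster from ZNF101 to ZNF254 (red) has its median at -1.34, and 3 of the other clusters have theirs at -0.73 or lower.

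A KRAB A box was found in the longest protein of 30 of the 34 members, and it was not found in ZNF257, ZNF492, ZNF714 and ZNF98. C2H2 fingers, counted as a pair of cysteines, 12 residues and a pair of histidines, numbered from 0 in ZNF738 to 39 in ZNF729, with a median of 13. The 6 members at 1 or more in the mutant group had 10 to 17 fingers, and the 10 near-silent ones 0 to 19. Across the 17 measured members Spearman's rho of the log2 ratio was 0.13 with the number of fingers and 0.06 with the parental level.

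G and C made up 58.0%, 59.0% and 58.3% of the windows of ZNF430, ZNF714 and ZNF431, 63.7% of that of ZNF101 and 54.3% of that of ZNF14. The windows of the 8 near-silent members that had one held 52.0% to 57.3%, a range in which ZNF14 and ZNF254 (55.7%) also lay. CG pairs numbered 13, 10 and 14 in the 3 kept neighbours and 9 to 16 in the near-silent members, so the counts overlap. Across the 14 measured members with a window, Spearman's rho between the log2 ratio and promoter GC content was 0.78, and it was 0.87 across 12 members without ZNF101 and ZNF14. With the number of CG pairs it was 0.68, and 0.64 without ZNF101 and ZNF14. Across 153 other zinc finger genes of chromosome 19 the rho with promoter GC content was 0.20, and across 10029 genes of any kind 0.13. These are descriptions across genes that share their origin and their libraries. The cluster was singled out on the levels behind this ratio, so the rho values of the members support nothing further. For a gene at 0 in the mutant group the ratio depends on its parental level alone. The lowest GC contents were those of ZNF675 (52.0%) and ZNF708 (52.3%), whose windows may be offset against the others. Members had windows with a median of 10 CG pairs, against 22 in the other zinc finger genes of chromosome 19 and 27 in all measured genes.

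**Figure D5:**
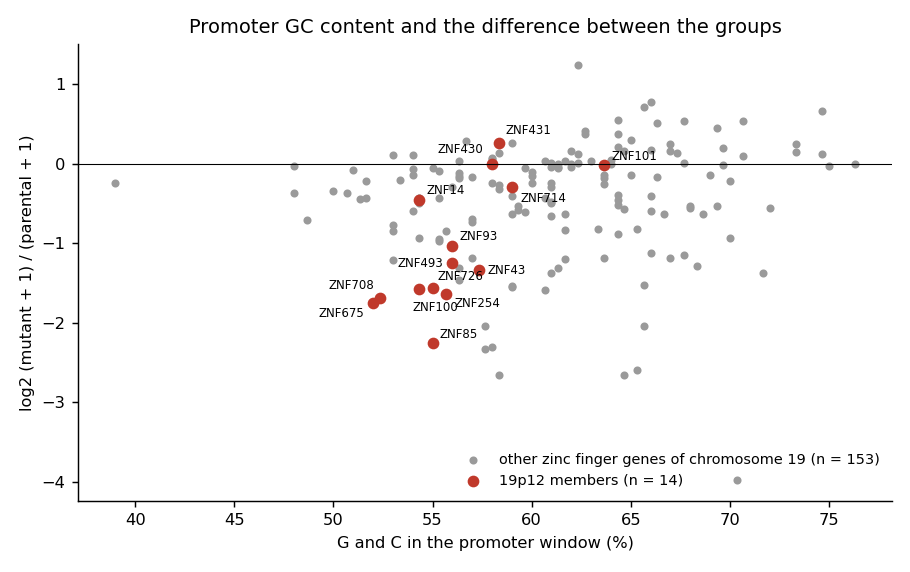
Log2 ratio of mutant over parental against the share of G and C in the promoter window, for 14 members at 1 or more in either group (red, named) and 153 other zinc finger genes of chromosome 19 (grey). ZNF430, ZNF714, ZNF431 and ZNF101 lie at 58.0% or more, with log2 ratios from -0.30 to 0.26, and the near-silent members lie at 57.3% or less, as do ZNF14 and ZNF254.

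The partners that KRAB proteins work through were all expressed. Of 16 genes of this list all were at 1 or more in both groups and none was near silent. All 16 were lower in the mutant group, beside 50.6% of the 14856 genes at 1 or more in either group. Their median log2 ratio was -0.22, against -0.01 over all measured genes. The authors' deposited table has 178 tested transcripts of these genes, of which 0 were called, beside 0.0221% of all tested transcripts. For 2 genes the most abundant transcript was under 0.05 before adjustment in the authors' deposited table, both lower. TRIM28, the KRAB partner itself, was at 271 against 306, and SETDB1 at 21.1 against 21.3. Their most abundant transcripts had p-values of 0.826 and 0.576 in the authors' deposited table. MORC2, an ATPase that works with the HUSH silencing complex, was at 12.1 against 17.9, and HDAC1, a histone deacetylase gene, at 53.3 against 73.3. Their transcripts MORC2-202 and HDAC1-201 had p-values of 0.00169 and 0.0274 in the authors' deposited table. CBX3, which encodes an HP1 protein, was at 104 against 146, and UHRF1, which guides DNA methylation after replication, at 25.2 against 54.8. Their p-values were 0.0539 and 0.0754 in the authors' deposited table. The cofactor differences and those of the zinc finger genes come from the same libraries, and how they relate was not tested.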

How the data were processed

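RNA of 3 mutant and 3 parental libraries was measured. Per the submitters' processing notes reads went through bcl2fastq, STAR and Partek on hg38; their versions and the annotation are not given in the sources used. Per the file headers the authors deposited, for each transcript, a score called LSMean (the mean abundance plus 1 of a group, which less the 1 sums to 496162 in each group), a ratio and a signed fold score, p-value and adjusted p-value scores, and a signal called total counts that is no read number. Depth per library is an estimate from the value of 1 read.

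Members, lists and alternatives were chosen with earlier results of these data known. The design named fits of single libraries or, with group means alone, a description without a test, and the second case held. Gene levels were sums over transcripts. Transcript names were matched to GENCODE 29 (99.1%). Transcripts with p 0.374 (18902) have reads in 1 library, and abundance times length took the same 3 values again and again there, the worth of 1 read in each library. Sums were turned into whole reads where a single combination was within rounding. For 2441 transcripts decoded in both groups an equal-variance comparison (4 degrees of freedom) on the log2 scale matched the deposited p within 0.002 in 100%, against 14.9% for untransformed values. The approximate SD assumes evenly spaced parental libraries. Functions were tested on simulated data. Near-silent genes are under 10% of a level of at least 1. Every member at 1 or more is named with its values, as is each member transcript with p under 0.01; names among lower members, neighbours and decoded transcripts were chosen after their values were seen. Clusters were grouped by distance, since no band limits were used. Alternatives were another added value, other filters, the most abundant transcript, the edge genes left out, GC content and other thresholds. Python 3.11.15, pandas 2.3.3, scipy 1.17.1 and Biopython 1.88 were used.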

Additional observations from a re-analysis of the deposited data

How the results depend on the processing

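No direction turned in the 36 alternative values computed, and 12 of them moved a count or the median. The cluster was singled out on these levels, and 11 of the 17 measured members reached 1 through the parental group alone. The direction was therefore largely fixed in advance, and that it did not turn supports nothing further. Lower members numbered 16. They were 4 at a level of at least 5, 30 with no filter, and 10 with the most abundant transcript per gene, where fewer genes reach 1. Higher members numbered 1, and 2 with the most abundant transcript and 3 with the GC trend taken out. The median of -1.34 was -3.65 with 0.1 added in place of 1, -0.30 at a level of at least 5 (5 genes, with ZNF430, ZNF714 and ZNF431 among them) and -0.37 with no filter. Transcripts called lower numbered 0 at an adjusted p under 0.05 or 0.1, 24 at an unadjusted p under 0.05 and 13 under 0.01 in the authors' deposited table; with 1 transcript per gene 0 were called and the smallest adjusted p was 0.0807. The 10 near-silent members were 1 at a level of at least 5 and 6 with the most abundant transcript. No paired analysis was possible because the table holds group means. Leaving out single libraries was not run for the same reason. The depth limits what can be said of members under 1, where a few reads carry a level.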

Other observations

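Beyond the members, the promoter run TCCAATCAGG was in the windows of 92 genes, of which 68 are in the table and 42 reached 1 in either group. Of these 42, 28 were lower in the mutant group and 14 higher, with a median log2 ratio of -0.09, and 1 was near silent: ZNF433, a zinc finger gene of the cluster from ZNF653 to ZNF791, at 0.0727 against 1.67. Other zinc finger genes of chromosome 19 with the run numbered 10 at 1 or more in either group, of which 8 were lower, with a median of -0.34 and 6 at 1 or more in the mutant group. Among them ZNF136 stood at 1.13 against 5.42 and ZNF440 at 0.762 against 2.10. On other chromosomes 12 of 15 zinc finger genes with the run reached 1, of which 8 were lower, with a median of -0.07 and none near silent. On chromosome 7 ZNF680 stood at 2.27 against 4.52, ZNF273 at 3.77 against 5.95, ZNF107 at 4.44 against 6.93, ZNF92 at 7.50 against 9.26 and ZNF138 at 7.80 against 8.42, and ZNF862 stood higher, at 6.44 against 4.12. Genes of other kinds with the run included SET, a histone chaperone gene, at 183 against 273, and TARBP1, an RNA methyltransferase gene, at 37.0 against 29.1. Of the members with the run 7 of 13 at 1 or more (53.8%) were near silent. The genes beyond the members were picked by the run after it had been seen in the members, and the members were singled out on their levels. The difference was not tested.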
